A study of Mus musculus with 2 samples.

Results

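The 10 genes described here are those of serotonin neurons and of serotonin reception: Tph2, Slc6a4, Fev, Maoa, Htr1a, Htr1b, Htr2a, Htr2c, Htr3a and Htr7. They were chosen by symbol, and all 10 were found among the 43346 Ensembl genes of the tables. The samples were single midbrains of B6NCrl mice at postnatal day 0, 1 from pup 1 (replicate 1) and 1 from pup 3 (replicate 2). Total RNA was sequenced, giving 36934868 expected counts in pup 1 and 40769103 in pup 3. The labels name no treatment and no genotype beyond the strain, and sex was not collected. Counts of sex-linked genes, given below, were those of a male pup 1 and a female pup 3. With 1 group of 2 animals there was no contrast between conditions, so levels are given per pup and as mean ± SD. A TPM is a level corrected for transcript length and scaled to the same total in each library. Expected counts are estimates of reads and are not corrected for length. Whole tissue was used, so fewer cells of a type and less RNA per cell cannot be told apart.

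Serotonin is made from tryptophan by tryptophan hydroxylase and then aromatic amino acid decarboxylase, packed into vesicles by the vesicular monoamine transporter, taken back up by the serotonin transporter and broken down by monoamine oxidase. In the brain it is made by raphe neurons, whose rostral groups lie in the midbrain and the anteriormost hindbrain and send axons throughout the forebrain. Its receptors fall into classes: those coupled to inhibitory G proteins (Htr1), to Gq (Htr2), and to Gs (Htr4, Htr6 and Htr7), the Htr5 class, and a ligand-gated channel (Htr3).

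Of the 10 genes, 9 reached 1 TPM in each pup, beside 62.1% of the 21474 protein-coding genes. Their median was 6.03 TPM in pup 1 and 5.13 TPM in pup 3, beside 4.52 and 4.70 TPM over all protein-coding genes. The order by mean TPM was Maoa, Htr7, Htr2c, Slc6a4, Tph2, Htr1a, Htr1b, Fev, Htr2a and Htr3a. Neighbours in that order were called apart where their log2 TPM ratio (0.1 added to each value) had 1 sign in both pups, a mean above 1 in size and above 3 SD, and deposited credibility intervals that overlapped in neither pup. By that rule 2 of the 9 neighbouring pairs were apart, Htr1b over Fev (1.05 ± 0.30 on the log2 scale) and Htr2a over Htr3a (1.45 ± 0.25). The other 7 pairs were not. Both calls rested on the scale: with a pseudocount of 1 in place of 0.1 the ratios were 0.78 and 0.76 and neither pair was apart. Htr1b over Fev was also not apart with posterior mean TPM (0.86) or without pup 3 (0.83). Htr1a and Htr1b changed places between the pups, with a log2 ratio of 0.28 in pup 1 and -0.01 in pup 3.

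**Figure D1:**
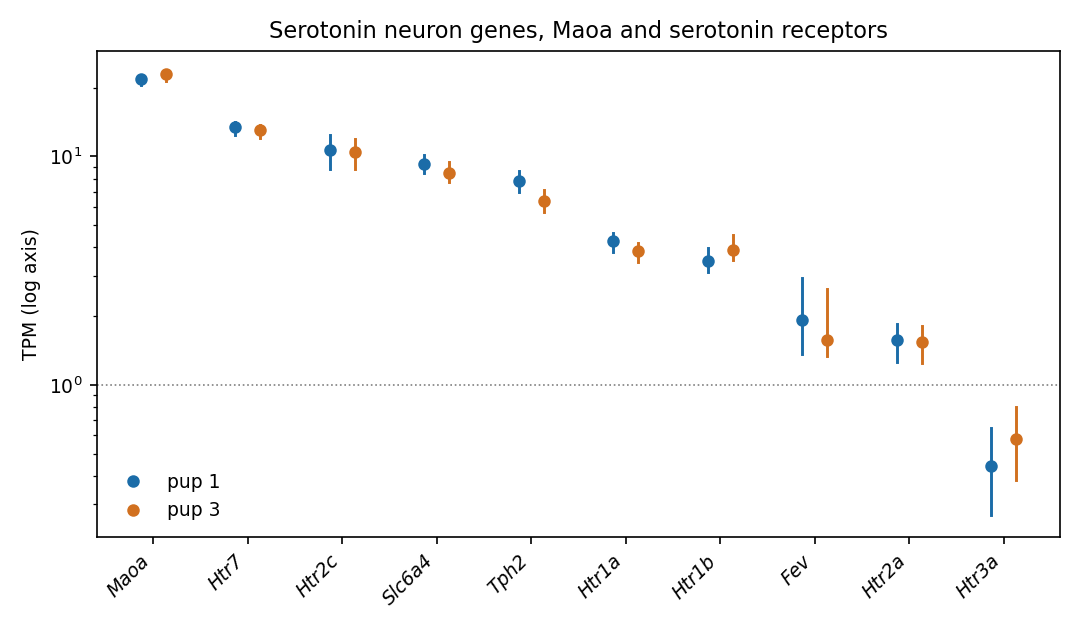
TPM of the 10 genes in pup 1 and pup 3 (log axis), ordered by mean; points are the deposited values, bars the deposited credibility intervals, and the dotted line marks 1 TPM. The genes run from Maoa at 21.9 and 22.8 TPM to Htr3a at 0.44 and 0.58 TPM.

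Transcripts that define serotonin neurons were present in both midbrains. Tph2, the brain form of tryptophan hydroxylase and the rate-limiting enzyme of serotonin synthesis (ENSMUSG00000006764.8; chromosome 10, 115078641 to 115185022, minus strand, mm10), was read with 454 counts in pup 1 against 406 in pup 3. Its level was 7.77 TPM in pup 1 and 6.36 TPM in pup 3, or 7.07 ± 0.997 TPM (SD, n = 2). The deposited intervals of the pups were 6.99 to 8.62 and 5.71 to 7.15 TPM, so they overlapped only at their edges. Slc6a4, the serotonin transporter (ENSMUSG00000020838.8; chromosome 11, 76998603 to 77032340), had 559 counts in each pup. It stood at 9.27 TPM in pup 1 and 8.44 TPM in pup 3 (8.86 ± 0.587 TPM), with overlapping intervals. Fev, the ETS-family transcription factor also called Pet1 that maintains serotonin neuron identity (ENSMUSG00000055197.4; chromosome 1, 74881509 to 74885419, minus strand), was much lower, at 1.92 TPM in pup 1 and 1.57 TPM in pup 3 (1.75 ± 0.247 TPM). That level rested on 44 counts in pup 1 and 55 in pup 3, with wide intervals of 1.37 to 2.92 and 1.33 to 2.63 TPM.

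The enzyme and the transporter stood above the factor in both pups. Tph2 exceeded Fev by 1.96 on the log2 scale in pup 1 and 1.95 in pup 3, and Slc6a4 exceeded Fev by 2.21 and 2.35. Both pairs were apart. Slc6a4 over Tph2 was at 0.25 in pup 1 and 0.40 in pup 3 and was not called apart. For Fev the direction between the pups depended on the scale: pup 3 was lower by TPM (log2 difference -0.27) but had more counts at equal depth (0.18, exact 95% interval -0.42 to 0.79). In pup 1 the Fev reads were assigned to 3 transcripts, 31.2 counts to Fev-201 (237 amino acids), 8.66 to Fev-202 (142 amino acids) and 4.10 to the retained-intron transcript Fev-203. Fev-203 is only 458 bases long, so these few reads made up 25.8% of the TPM of Fev in pup 1, and in pup 3 all 55 counts went to Fev-201. The deposited intervals of Fev-202, 0.0476 to 1.02 TPM and 5.05e-07 to 0.533 TPM, overlapped between the pups. Those of Fev-201 and Fev-203 overlapped too, so the pups were not separated in these shares. Over protein-coding transcripts alone Fev was at 1.42 TPM in pup 1 and 1.57 TPM in pup 3. On that measure Tph2 exceeded Fev by 2.37 in pup 1 and 1.95 in pup 3, and Slc6a4 exceeded Fev by 2.58 and 2.34, so the first ratio was no longer nearly equal in the pups.

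Factors that specify serotonin neurons were mostly detected. Of the 10 genes on that list 8 reached 1 TPM in each pup, beside 62.1% of protein-coding genes. The list median was 2.61 TPM (pup 1) and 2.22 TPM (pup 3), beside 4.52 and 4.70 TPM over all protein-coding genes. Gata3, a zinc finger factor of serotonin neurons that also serves midbrain GABAergic neurons, was highest at 78.1 ± 3.54 TPM. Lmx1b, a LIM homeodomain factor required for serotonin neurons, was lowest at 0.55 TPM in pup 1 and 0.70 TPM in pup 3. None of the 7 genes of this list with a mean count of 100 or more differed between the pups by more than 1 on the log2 scale. Over all genes at that count 0.315% did, so this count is near the background and is no result about the list.

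Serotonin neurons share 2 steps with other monoamine neurons. Ddc, the decarboxylase that follows Tph2, was at 20.1 TPM in pup 1 and 19.7 TPM in pup 3, and Slc18a2, the vesicular monoamine transporter, at 16.5 and 16.4 TPM. Ddc exceeded Tph2 by 1.49 ± 0.18 on the log2 scale and Slc18a2 exceeded it by 1.21 ± 0.19, and both pairs were apart. Dopaminergic genes were present in the same tissue: Th, tyrosine hydroxylase, at 29.8 and 22.3 TPM, and Slc6a3, the dopamine transporter, at 20.7 and 12.2 TPM. Noradrenergic genes had few counts. Dbh, which turns dopamine into noradrenaline, had 22 and 11 counts, and the noradrenaline transporter Slc6a2 had 28 and 18. The shares of Ddc and Slc18a2 that came from each cell type were not tested. Of 7 Hox genes of the hindbrain 5 were at 0 counts in each pup, while Hoxb2 and Hoxb5 each had 1 count in pup 3 alone. As background, Hox genes are off in the anteriormost hindbrain, where part of the rostral raphe lies.

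Maoa, the monoamine oxidase that degrades serotonin most readily (ENSMUSG00000025037.6; X chromosome, 16619698 to 16687818), was the highest of the 10 genes. Its 2061 counts in pup 1 against 2347 in pup 3 gave levels of 21.9 and 22.8 TPM (22.4 ± 0.658 TPM), above 72.6% of protein-coding genes. The 1 Maoa transcript in the tables encodes 526 amino acids. Maob, the second monoamine oxidase, was at 6.36 and 6.01 TPM, so Maoa exceeded it by 1.77 on the log2 scale in pup 1 and 1.91 in pup 3, and the pair was apart. Maoa also exceeded Slc6a4, by 1.33 ± 0.14, and that pair was apart too.

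On the wider list for synthesis, transport and breakdown 12 of 15 genes reached 1 TPM in each pup, beside 62.1% of protein-coding genes. The list median was 16.5 (pup 1) and 16.4 (pup 3) TPM. None of the 12 genes with a mean count of 100 or more differed between the pups by over 1 on the log2 scale. Beside the 0.315% of all genes at that count that did, this is near the background and no result about the list. Genes that make or recycle tetrahydrobiopterin, the cofactor of the hydroxylases, included the highest of the list, Qdpr, at 119 and 111 TPM. Next among cofactor genes came Pts (67.9 and 64.8 TPM), Pcbd1 (61.3 and 60.6 TPM) and Spr (28.2 and 24.6 TPM). Gch1, the first enzyme of that pathway, was far lower at 5.88 TPM in pup 1 and 4.51 TPM in pup 3. Aldh2, an aldehyde dehydrogenase that acts on the products of monoamine oxidase, was at 83.7 and 77.8 TPM. Slc29a4, a low-affinity monoamine transporter, was at 57.4 TPM in pup 1 and 57.5 TPM in pup 3, against 2.61 and 3.18 TPM for Slc22a3, another low-affinity monoamine transporter. The lowest gene of the list was Slc18a1, the endocrine form of the vesicular transporter, at 0.64 and 0.60 TPM on 18 and 8 counts.

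Tph1, the tryptophan hydroxylase of the gut and the pineal gland, was the gene of this list that differed most between the pups. It had 7 counts in pup 1 and 49 in pup 3, a log2 ratio of 2.66 at equal depth (exact 95% interval 1.51 to 4.05, counting error only). On the log2 scale of TPM the difference was 1.33 (0.44 TPM in pup 1 and 1.26 TPM in pup 3), since none of the 7 counts of pup 1 went to the full-length coding transcript Tph1-202, which held 47.4 of the 49 counts of pup 3. Its mean count was below 100, so it lies outside the set used for the background share. The transcript Tph1-201 was quantified with 2042 bases and has 4562 in the later GENCODE M21, so reads from the added part were not counted for it. Tph2 exceeded Tph1 by 3.87 in pup 1 and 2.25 in pup 3, a spread too wide for the pair to be called apart. Among pineal genes, Crx had 0 counts in pup 1 and 13 in pup 3, Sag 51 and 79, Aanat 17 and 24, and Asmt 0 in both. The 4 genes summed to 1.86 TPM in pup 1 and 2.65 TPM in pup 3, and their part in the Tph1 difference was not tested.

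Receptor genes covered a wide range. Of all 14 serotonin receptor genes 9 reached 1 TPM in each pup, 5 of the 6 members and 4 of the other 8. The share over all protein-coding genes was 62.1%, so the count of 9 is near the background and is no result about these genes. The median of the 14 was 1.45 TPM (pup 1) and 1.47 TPM (pup 3), beside 4.52 and 4.70 TPM over all protein-coding genes. Htr7 and Htr2c stood above the rest, and Htr3b was lowest. The 14 genes summed to 45.7 TPM in pup 1 and 45.2 TPM in pup 3.

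**Figure D2:**
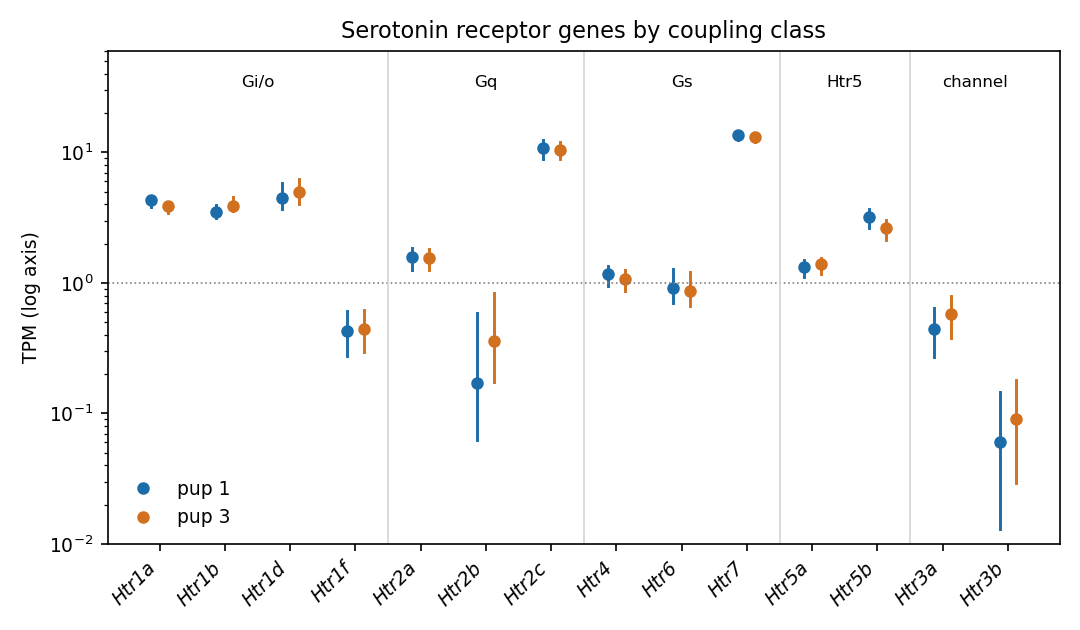
TPM of the 14 serotonin receptor genes in pup 1 and pup 3 (log axis), grouped by coupling class; points are the deposited values, bars the deposited credibility intervals, and the dotted line marks 1 TPM. Within the Gq and Gs classes a single gene, Htr2c at 10.7 and 10.4 TPM and Htr7 at 13.5 and 13.1 TPM, lies far above its relatives, while Htr1a, Htr1b and Htr1d lie close together.

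In the class coupled to inhibitory G proteins, Htr1a, Htr1b and Htr1d were at similar levels. Htr1a, the autoreceptor on raphe cell bodies and also a receptor of target neurons (ENSMUSG00000021721.4; chromosome 13, 105443639 to 105448122), was read with 430 counts in pup 1 against 425 in pup 3. That gave 4.28 and 3.87 TPM (4.08 ± 0.290 TPM). Htr1b, the autoreceptor of serotonin axon endings (ENSMUSG00000049511.5; chromosome 9, 81628291 to 81633828, minus strand), was at 3.50 and 3.90 TPM (3.70 ± 0.283 TPM). Htr1d, a closely related receptor, was at 4.48 and 4.96 TPM, and Htr1b over Htr1d was at -0.35 on the log2 scale in pup 1 and -0.34 in pup 3 and not apart. Htr1f was lowest of the class at 0.43 and 0.44 TPM. Htr1a was below Tph2 in both pups, by 0.85 and 0.70 on the log2 scale, which did not reach the rule for apart.

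Htr1b is the only member whose counts were not whole (within 0.005), at 374.36 in pup 1 and 455.54 in pup 3. A gene on the opposite strand, D430036J16Rik (chromosome 9, 81631551 to 81645156), overlaps it and held 234.64 and 307.46 counts. The counts of both genes summed to 609 in pup 1 and 763 in pup 3, whole numbers within 0.02, so the estimates split a common set of reads. Htr1b received 61.5% of that sum in pup 1 and 59.7% in pup 3. The use of strand in counting is not given in the sources used here, but these reads were shared between genes on opposite strands. Where the genes overlap, reads of Htr1b and of its antisense partner cannot be told apart, so the level of Htr1b is uncertain. No other member had a partly shared count.

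Among receptors coupled to Gq, Htr2c exceeded Htr2a by 2.69 on the log2 scale in pup 1 and 2.68 in pup 3, and the pair was apart. Htr2c, a receptor of many brain neurons and of choroid plexus epithelium (ENSMUSG00000041380.9; X chromosome, 146962513 to 147197277), was read with 821 counts in pup 1 against 932 in pup 3, at 10.7 and 10.4 TPM (10.6 ± 0.198 TPM). Htr2a, the receptor on which classical hallucinogens act (ENSMUSG00000034997.4; chromosome 14, 74640840 to 74709494), had 104 and 112 counts, at 1.57 and 1.54 TPM (1.56 ± 0.0212 TPM). The Htr2a transcript in the tables has 2971 bases and the same transcript in the later GENCODE M21 has 5606, so reads from the added part were not counted for this gene. Htr2b, found in heart, gut and blood vessels, had only 4.14 counts (pup 1) and 10.7 counts (pup 3), and Htr2a exceeded it by 2.23 ± 0.56.

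Htr2c reads were divided over 7 transcripts, of which 3 carry the finding. Htr2c-201, encoding the full receptor of 459 amino acids, held 54.1% of the TPM of the gene in pup 1 and 51.4% in pup 3. Htr2c-207, in which an upstream splice donor of the same exon is used, held 10.7% and 18.3%. It lacks 95 coding bases at chrX:147169676-147169770 (plus strand, mm10), a length that is not a multiple of 3, so the frame shifts and the annotated protein ends at 172 amino acids. The skipped coding segment of Htr2c-201 is shown first, with a stretch in capitals that is known to be edited from adenosine to inosine in brain, and then the joined sequence of Htr2c-207, 15 bases on either side of the junction.
Htr2c segment: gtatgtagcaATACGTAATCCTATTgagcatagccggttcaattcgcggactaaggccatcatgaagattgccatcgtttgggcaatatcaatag
Htr2c-207 junction: catatcgctggaccggagtttcagttccta
The capitals span bases 11 to 25 of the segment, and the segment opens with the bases GT of the upstream donor. Editing itself was not measured, since the tables hold no base calls.

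The truncated form held a larger assigned share in pup 3 than in pup 1, within wide intervals. Among Htr2c-201, Htr2c-202 (which encodes the same 459 amino acids) and Htr2c-207, the last held 15.7% of counts in pup 1 and 25.1% in pup 3, or 20.4% ± 6.65 (SD, n = 2). The counts assigned to it were 120 and 220. The deposited intervals of its level, 0.247 to 2.25 TPM in pup 1 and 0.759 to 3.18 TPM in pup 3, overlapped, so the pups were not separated at this depth.

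A large part of the Htr2c level came from a short noncoding transcript. Htr2c-205, of 648 bases and covering only the first exons, held 28.1% of the TPM of the gene in pup 1 and 25.7% in pup 3, on 38.1 and 37.2 counts, or 4.65% and 3.99% of its counts. Over protein-coding transcripts alone Htr2c was at 7.55 TPM in pup 1 and 7.49 TPM in pup 3, below Slc6a4 at 8.99 and 8.37 TPM, and the order of these neighbours was then the opposite of that over all transcripts. Markers of choroid plexus were also read. Of 10 such genes 4 reached 1 TPM in each pup, beside 62.1% of protein-coding genes. None was at 0 in both, and the 10 genes summed to 23.4 TPM in pup 1 and 29.1 TPM in pup 3. Of the 10 genes, 6 were higher in pup 3 and 4 lower. The log2 differences in TPM (pup 3 over pup 1) ran from -0.72 for the water channel gene Aqp1 to 2.47 for Ttr, the transthyretin gene, which went from 0.85 to 5.16 TPM and made up most of the difference in the sum. Kcnj13, the highest of the 10, was at 8.67 and 9.18 TPM, and Slc4a5, the lowest, at 0.13 and 0.21 TPM. The counts of Kcnj13 were not whole (234.88 in pup 1 and 271.57 in pup 3), so its level is uncertain like that of Htr1b. The level of Htr2c differed by -0.04 on the log2 scale. The share of Htr2c from that epithelium was not tested.

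Htr7, a receptor coupled to Gs (ENSMUSG00000024798.11; chromosome 19, 35958734 to 36057507, minus strand), had the highest mean level of the serotonin receptors. It was read with 901 counts in pup 1 against 948 in pup 3, at 13.5 and 13.1 TPM (13.3 ± 0.290 TPM). The deposited intervals, 12.4 to 14.2 and 12.1 to 13.8 TPM, overlapped over most of their range. It exceeded Htr4 by 3.46 ± 0.036 on the log2 scale and Htr6 by 3.76 ± 0.0099, and both pairs were apart. Htr4 was at 1.16 and 1.08 TPM and Htr6 at 0.91 and 0.87 TPM.

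Htr7 transcripts differed at the end of the coding sequence, which encodes the tail of the receptor inside the cell. Htr7-202 encodes 448 amino acids, Htr7-205 435 and Htr7-201 470. Htr7-205 keeps 5 further bases of the preceding exon (chr19:35969304-35969308), and Htr7-201 adds an exon of 97 bases (chr19:35964381-35964477). The coding ends are printed here in the direction of transcription, from the minus strand (GENCODE M21, mm10), because they are all that separates these receptors: 30 shared bases in lower case, then in capitals the bases that follow in each, up to and including the stop codon.
Htr7-202: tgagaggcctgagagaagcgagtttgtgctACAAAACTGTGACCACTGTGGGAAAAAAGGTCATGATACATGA
Htr7-205: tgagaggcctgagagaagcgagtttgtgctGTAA
Htr7-201: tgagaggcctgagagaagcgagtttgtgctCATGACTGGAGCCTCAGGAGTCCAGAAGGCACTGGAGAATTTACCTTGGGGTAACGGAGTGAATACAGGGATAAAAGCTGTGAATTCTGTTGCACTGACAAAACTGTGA
After the shared bases Htr7-202 runs for 43 bases, Htr7-205 for 4 and Htr7-201 for 109. The last 12 bases of Htr7-201 are the first 12 capitals of Htr7-202, read in another frame after the added exon.

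The form with 448 amino acids led in both pups. Among these 3 coding transcripts Htr7-202 held 69.3% of TPM in pup 1 and 80.1% in pup 3, Htr7-205 28.7% and 18.8%, and Htr7-201 1.96% and 1.08%. The counts behind these shares were 458 (pup 1) and 607 (pup 3) for Htr7-202, against 192 and 143 for Htr7-205. The deposited intervals of Htr7-205, 1.02 to 4.82 TPM and 0.356 to 3.06 TPM, overlapped between the pups. Transcripts annotated for nonsense-mediated decay, the removal of RNAs with an early stop, held 28.3% of the TPM of Htr7 in pup 1 and 22.5% in pup 3. Most of that was Htr7-204, with an added exon of 58 bases (chr19:36041555-36041612), at 18.8% and 14.1% of the TPM of the gene.

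**Figure D3:**
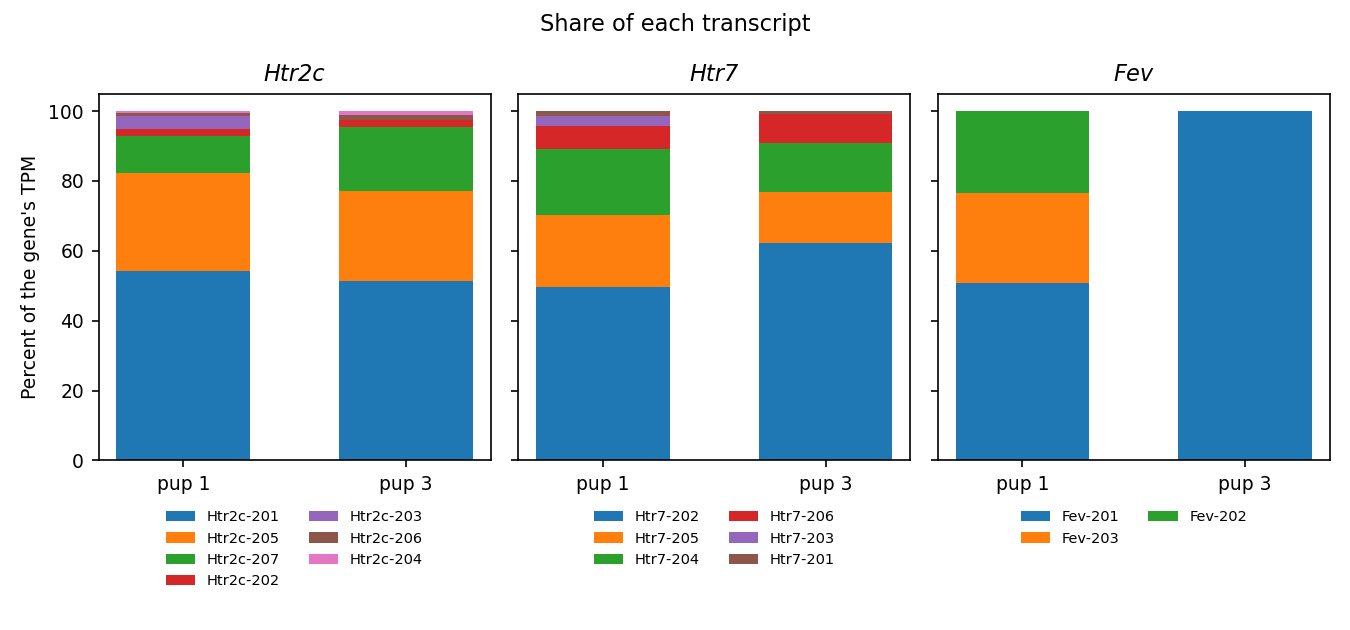
Percent of the TPM of Htr2c, Htr7 and Fev assigned to each transcript in pup 1 and pup 3, stacked to 100. The same transcript leads in both pups for each gene, at 54.1% and 51.4% for Htr2c, 49.7% and 62.1% for Htr7 and 50.7% and 100% for Fev.

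For the other members transcripts added little. Maoa, Htr1a, Htr2a and Htr3a have 1 transcript each in the tables. All counts of Tph2 went to Tph2-201 (488 amino acids) and all those of Htr1b to Htr1b-202 (386 amino acids). Slc6a4-201 (630 amino acids) held 97.0% of the TPM of the transporter in pup 1 and 99.2% in pup 3, the rest being a retained intron. For all 10 members the leading transcript was the same in both pups.

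Htr3a, the subunit without which the serotonin-gated channel does not form (ENSMUSG00000032269.7; chromosome 9, 48899213 to 48911099, minus strand), was the lowest member. It had 20 counts in pup 1 and 29 in pup 3, at 0.44 and 0.58 TPM (0.51 ± 0.099 TPM), below the 1 TPM used for detection. Htr3b, its partner subunit, had 3 and 5 counts, and Htr3a exceeded it by 1.80 ± 0.060 on the log2 scale. An antisense gene, Gm32335, overlaps Htr3a in GENCODE M21 but is not among the features of the tables. Where the genes overlap, reads from Gm32335 and from Htr3a cannot be told apart. In the Htr5 class Htr5b, which is intact in mouse, was at 3.20 and 2.61 TPM and Htr5a at 1.33 and 1.39 TPM.

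Genes listed for the coupling of these receptors were high. Besides genes through which the receptors signal, the list holds S100a10 (mean 115 TPM) and Ric3 (mean 35.4 TPM). Of the 19 on that list 18 reached 1 TPM in each pup, beside 62.1% of protein-coding genes. The list median was 35.5 TPM (pup 1) and 35.4 TPM (pup 3), which is the level of Ric3. Gnas, the stimulatory G protein subunit gene, was highest at 1520 ± 55.9 TPM, and Kcnj5, a subunit of the potassium channel opened by inhibitory receptors, was lowest at 1.05 ± 0.156 TPM. None of the 19, all at a mean count of 100 or more, differed between the pups by over 1 on the log2 scale. The share over all genes at that count was 0.315%, so this too is near the background and no result about the list. As background, the signalling genes serve many other receptors too.

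Between the pups the serotonin genes were close. No member differed by more than 1 on the log2 scale, and the 8 members with a mean count of 100 or more had a median difference (pup 3 over pup 1) of -0.04. Of all 13318 genes at that count 0.315% were past 1 in either direction, 0.218% towards pup 3 and 0.0976% towards pup 1, so a count of 0 among 8 is near the background and is no result about these genes. The median absolute difference over those 13318 genes was 0.11. Tph2 had the largest difference among the 8 members, at -0.28 by TPM and -0.30 by counts at equal depth, with an exact 95% interval of -0.50 to -0.11. That interval covers counting error only, and it was the only interval of a member that did not include 0. Intervals of other listed genes also left out 0, as for Gch1, Spr and Qdpr, while those of Ddc and Slc18a2 included it. The share over all genes was not computed, so Tph2 cannot be called unusual. For Slc6a4 the interval was -0.31 to 0.03 and for Htr1a -0.36 to 0.04. Each animal gave 1 library, so the difference in Tph2 has no replicate check.

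**Figure D4:**
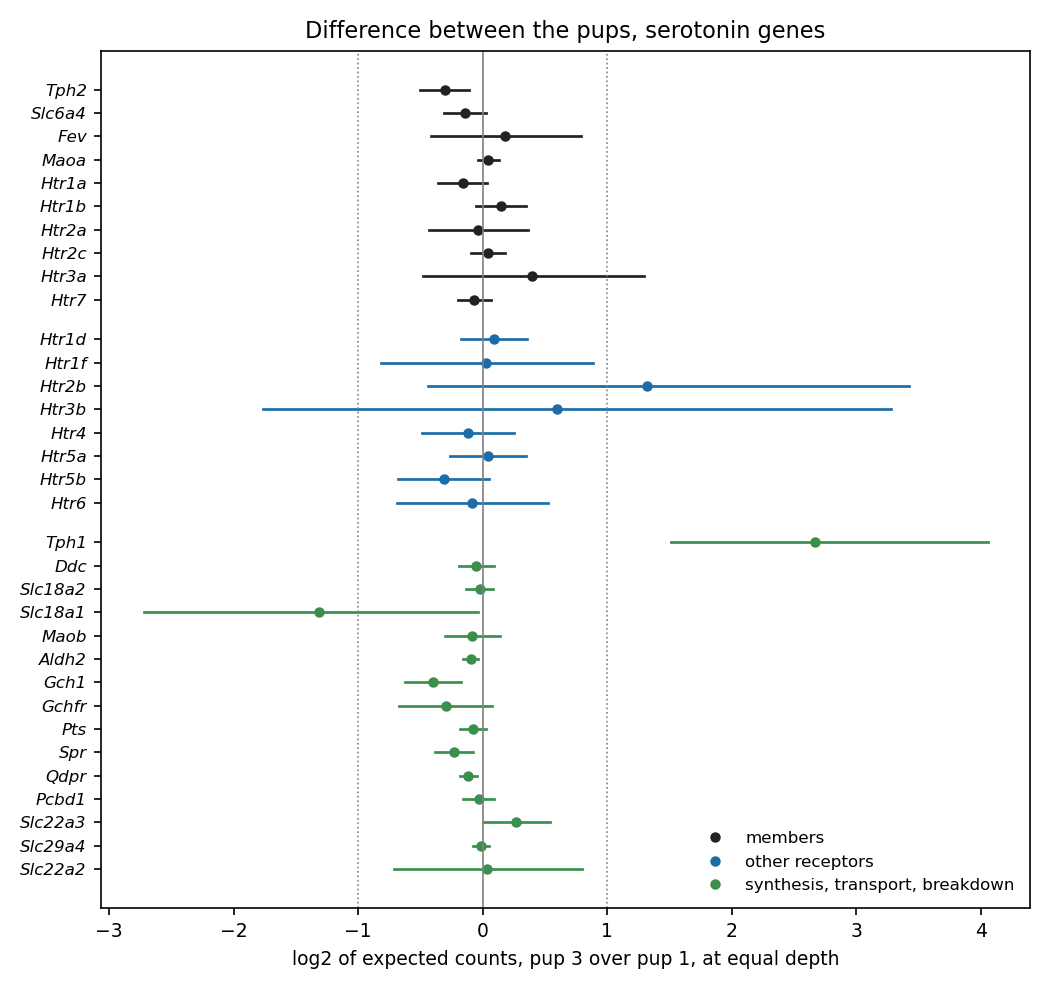
log2 ratio of expected counts, pup 3 over pup 1 at equal depth, for the 10 members (black), the other serotonin receptor genes (blue) and the synthesis, transport and breakdown genes (green); bars are exact 95% intervals for counting error and dotted lines mark 1 and -1. Members lie between -0.30 (Tph2) and 0.39 (Htr3a), and Tph1 lies at 2.66.

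Markers of neighbouring tissue also differed between the pups. Of 7 hypothalamic genes 6 had a mean count of 100 or more. Past 1 towards pup 3 were 4 of these, Oxt (log2 difference 2.23), Six6 (1.59), Hcrt (1.53) and Avp (1.12), beside 0.218% of all genes at that count. Nkx2-1 (0.56) and Pomc (0.28) were not past 1. Oxt and Avp had counts that were not whole. The summed level of the 7 genes was 148 TPM in pup 1 and 329 TPM in pup 3. Agrp, with a mean count under 100, differed by 1.23 in the same direction as Oxt, Six6, Hcrt and Avp. Its counts were also not whole. Dopaminergic genes differed towards pup 1, by -0.42 for Th and -0.76 for Slc6a3, in the same direction as Tph2 and Slc6a4. Ddc and Slc18a2, shared by these kinds of neuron, differed by only -0.03 and -0.01. The difference in Slc6a4 was -0.13 with a count interval that includes 0, and that in Fev changed sign with the scale. Astrocyte genes had a median difference of -0.25 and neuronal genes one of 0.04. By mean TPM the highest and lowest genes were Aldoc and S100b among astrocyte markers, Tubb3 and Rbfox3 among neuronal, Cldn5 and Slco1a4 among endothelial, Rgs5 and Abcc9 among mural and C1qb and Tmem119 among microglial markers, and none of these lists held a gene past 1. The part of these differences in those of Tph2 and Slc6a4 was not tested. Pup 1 had 2618 counts of the Y-linked gene Ddx3y and 2.26 of Xist, against 0 and 10434 in pup 3. These are the counts of a male and a female, so sex and animal cannot be told apart in any difference between the pups. The X-linked members Maoa and Htr2c differed by 0.06 and -0.04.

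**Figure D5:**
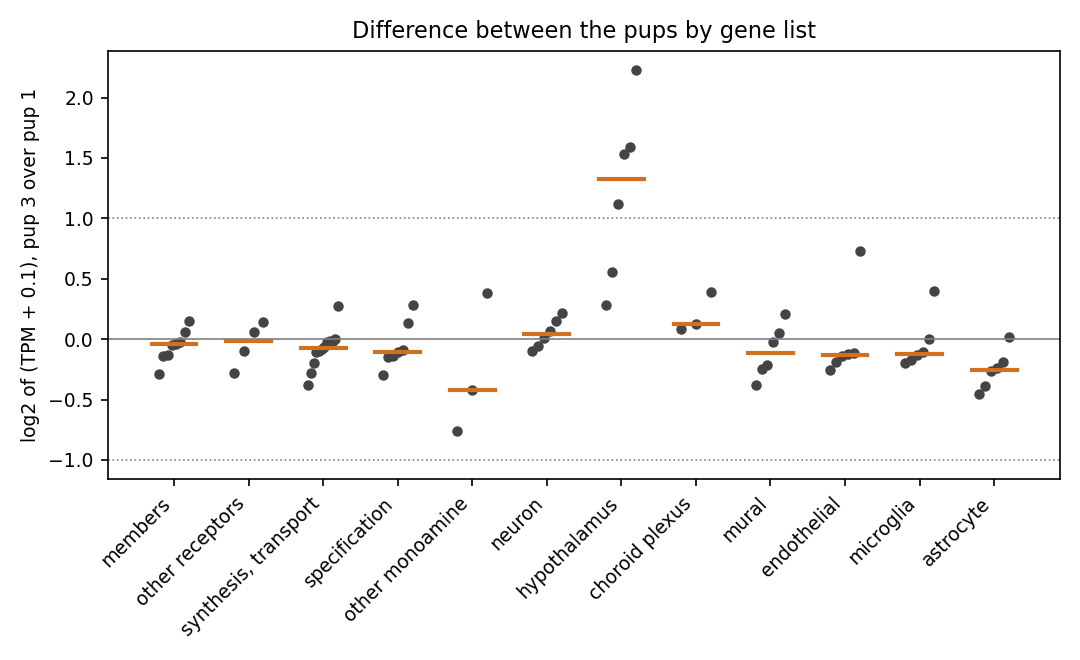
log2 ratio of TPM (0.1 added), pup 3 over pup 1, for each gene with a mean count of 100 or more, by gene list; orange bars are list medians and dotted lines mark 1 and -1. The 8 members shown lie between -0.28 (Tph2) and 0.15 (Htr1b), and the hypothalamic list has a median of 1.33 with 4 genes above 1.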

How the data were processed

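Tables of genes and transcripts were deposited by the authors for each library, quantified on mm10 with the GENCODE M4 transcripts, per the text record deposited with them. The program is not given in the sources used here. The authors deposited expected counts (estimates of reads, not always whole), TPM (scaled to 1 total per library), FPKM, and the percent of a gene's TPM held by each transcript. Their tables also hold posterior mean TPM and a credibility interval whose level is not stated and which need not contain the TPM.

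Symbols, coordinates and coding lengths came from GENCODE M21 on the same build by Ensembl identifier without version. All 126 listed genes matched. Printed sequences were read from the GENCODE M21 transcripts, whose lengths for the Htr2c and Htr7 transcripts equal those in the tables.

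Members and lists were chosen with earlier results of these data known. All members are named, and of other lists the highest and lowest by mean TPM and any gene past 1 between the pups at a mean count of 100 or more (Agrp, below that count, was named after its values were seen). Serotonin receptor and synthesis genes, and genes of other monoamine neurons, receptor coupling, pineal, hypothalamus and choroid plexus, are also named where a result touches them. The smallest p that 2 animals allow in an exact sign-flip test is 0.5, so none is given, and no likeness across 2 libraries was computed. Intervals are exact binomial, on counts rounded to whole numbers, and cover counting error only. The calculation of the difference between the pups was checked on simulated data; the difference itself has no test. Scaling factors came from edgeR 4.0.16 and DESeq2 1.42.0 in R 4.3.3. Other steps used Python 3.11.15, pandas 2.3.3, SciPy 1.17.1 and matplotlib 3.10.9.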

Additional observations from a re-analysis of the deposited data

How the results depend on the processing

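Of the 9 neighbouring pairs 2 were apart. The number was 1 with posterior mean TPM, 0 with a pseudocount of 1, 3 with counts not divided by length, and 1 to 2 leaving out each pup. Htr1b over Fev was lost without pup 3 (0.83). Every alternative kept the credibility intervals of TPM in the rule. With a single pup there was no SD, so the condition of 3 SD did not apply. The number of the 16 chosen pairs apart was 11, and 10 to 12 under every alternative. Counts not divided by length gave -1.13 for Fev over Htr2a and 0.80 for Htr1b over Htr1d, the opposite sign in each, as the genes differ in length. Htr1a over Htr1b ran from -0.011 to 0.28 leaving out each pup. Past 1 between the pups there were 42 genes, and 27 with a pseudocount of 1; the share past 1, 0.315%, became 2.12% when the mean count had to reach only 10 and 9.23% with no filter on low counts. No member was past 1 under any scaling. Leaving out transcripts that are not protein-coding, an alternative chosen after seeing the data, lowered Htr2c to 7.52 TPM, and Htr7 to 9.90 TPM, and gave Fev a difference of 0.14 towards pup 3. No paired analysis was possible because the series has a single group. Of the members, Fev and Htr3a had mean counts under 100, and their intervals were the widest of the 10.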

Other observations

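Enzymes of other amines were read at low levels beside the serotonin genes. Hdc, which makes histamine in hypothalamic neurons and mast cells, had 114 counts in pup 1 and 164 in pup 3, at 2.43 and 3.20 TPM. Pnmt, the enzyme that makes adrenaline, had 80 and 77 counts, at 3.28 and 2.89 TPM. Both were above Dbh, the enzyme that acts before Pnmt, at 0.39 TPM in pup 1 and 0.18 TPM in pup 3.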
